A study of Mus musculus with 6 samples.

Results

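The Hox, Dlx, Msx, Tbx, Prrx, Pitx, Meis, Pbx and Six-family genes and Shox2 encode transcription factors that give cells of the embryo their position and shape the limb and skeleton. Members were taken from the table of all genes by a rule on symbols that used no measured value, and 69 of its 16880 genes matched. The rule itself was chosen with earlier results of these data known. Of these 69 genes, 55 had a read count of 60 or more summed over the 6 libraries, and the same 55 passed the filter on low counts and were tested. RNA sequencing had been done on cells that the sample labels call ATDC5, a mouse chondrogenic line, while the study's methods speak only of chondrocytes for the sequencing and describe primary mouse articular chondrocytes without naming this line. The IL-1β group was cultured with 10 ng/mL of the inflammatory cytokine IL-1β for 24 h, and the IL-1β + NP-G2-044 group received the same IL-1β together with 10 μM NP-G2-044, an inhibitor of the actin-bundling protein fascin (FSCN1). Each group had 3 libraries, which the study's methods call biological replicates, and every library carried IL-1β, so a change below is a change with the inhibitor on top of the cytokine. The sample titles name the inhibitor NP-G2-044 while the treatment field spells it NP-G2-047, and the name in the titles is used here.

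Hox genes lie in 4 clusters, in which the order of the genes follows the order of their domains along the body axis, and low-numbered genes act towards the head and high-numbered genes towards the tail and the end of the limb. PBX and MEIS proteins are homeodomain cofactors that bind DNA with HOX proteins. DLX and MSX factors act in jaw and limb buds and in cartilage and bone formation, PRRX1 marks limb bud mesenchyme, T-box (TBX) factors act in limb and heart outgrowth, and SIX-family factors work with EYA partners in muscle and skeletal precursors.

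Promoter windows of 300 bases (250 before and 50 after a start site) from RefSeq on GRCm38.p6 were found for 43 of the 69 genes, 45 windows in all. The parts outside exons are printed for 4 genes that responded differently, with the only searched motif found in them in capitals. Prrx1 (chr1:163313711-163313900, minus strand) and Msx1 (chr5:37824586-37824835, minus strand) fell, Dlx2 (chr2:71546755-71547004, minus strand) did not pass the test, and Hoxb4 (chr11:96318017-96318266, plus strand) rose. The window of Prrx1 belongs to a start site inside the annotated gene, whereas the other windows adjoin the 5′ end of theirs.
Prrx1: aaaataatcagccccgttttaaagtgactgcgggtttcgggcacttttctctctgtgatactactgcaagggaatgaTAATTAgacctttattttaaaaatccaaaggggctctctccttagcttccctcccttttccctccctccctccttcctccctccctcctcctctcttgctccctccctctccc
Msx1: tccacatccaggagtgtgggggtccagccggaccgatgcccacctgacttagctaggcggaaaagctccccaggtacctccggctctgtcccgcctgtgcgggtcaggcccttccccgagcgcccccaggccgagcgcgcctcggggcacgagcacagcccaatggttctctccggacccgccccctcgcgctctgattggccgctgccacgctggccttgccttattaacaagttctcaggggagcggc
Dlx2: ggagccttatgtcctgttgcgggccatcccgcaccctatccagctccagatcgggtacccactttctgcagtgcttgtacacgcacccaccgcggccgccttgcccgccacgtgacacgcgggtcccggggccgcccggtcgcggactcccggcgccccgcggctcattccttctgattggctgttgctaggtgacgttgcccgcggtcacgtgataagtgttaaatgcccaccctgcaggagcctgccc
Hoxb4: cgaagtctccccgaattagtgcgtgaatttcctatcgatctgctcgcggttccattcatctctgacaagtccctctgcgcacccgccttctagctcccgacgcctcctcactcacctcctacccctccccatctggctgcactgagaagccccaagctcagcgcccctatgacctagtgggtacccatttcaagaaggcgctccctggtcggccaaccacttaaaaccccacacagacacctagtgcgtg
The capitals mark TAATTA, the core that many homeodomain proteins bind. Both strands of every window were searched. TAATTA stood in 4 of the 45 windows (8.89%), those of Msx2, Prrx1, Tbx6 and Tbx19, against 5.29% of all 32851 RefSeq windows. TGACAG, bound by MEIS and PKNOX proteins, stood in 7 windows (15.6%) against 19.2% of all. The T-box site AGGTGTG, found in the window of Hoxd9 alone, and the AP-1 site TGAGTCA, found in that of Six5 alone, stood in 1 window each, against 5.84% and 5.2% of all. A match is a description of these letters and not of binding.

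The libraries held 16615824 to 17735860 estimated reads assigned to genes. Pairs of the same group differed by 1.54 to 2.39 times the sampling noise, more than the same library read again would give. Whether they came from separate cultures cannot be told from this. The common variation between libraries of a group, beyond counting noise, was fitted at 2.33% of the level, and small p-values rest on this small spread. The response of the cells as a whole was broad. With edgeR's quasi-likelihood test and a Benjamini-Hochberg adjusted p under 0.05, 40.2% of all 11983 genes tested were higher and 39.8% lower with NP-G2-044, and when the log2 fold change also had to exceed 1 in size the shares were 6.48% and 10.1%. Of the chondrocyte markers, 8 of 12 were listed and 5 tested. Their summed level was 21.9 to 22.7 TPM (the unit of the deposited table, a level per transcript length) in the IL-1β libraries and 17.1 to 17.6 TPM in the treated ones, with Matn1 at 0 reads and the cartilage collagen Col2a1 at 38 reads over all libraries. Against the sum, Sox9, the master factor of chondrocytes, rose from 6.44 ± 0.675 to 11.4 ± 0.0569 TPM (log2 fold change 0.85, edgeR adjusted p = 5.07e-16). It was the only tested chondrocyte marker that was higher. Sox5 (log2 fold change -2.49), Col2a1 (-2.41) and Col11a2 (-0.56) were lower, and Sox6 did not pass. The fibroblast or mesenchymal markers, 10 of 10 listed, summed to 7576 to 7799 TPM without and 2367 to 2475 TPM with the inhibitor. Most of this sum was S100a4 (mean 4313 and then 730 TPM) and Vim (2208 and then 1326 TPM). Of the 8 tested, 7 were lower and 1 was higher, Pdgfra, at 2.36 and then 8.69 TPM (log2 fold change 1.91). In bulk RNA, fewer cells of a type and less RNA per cell cannot be told apart, and the part of these markers in the results below was not tested.

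Against that background, 28 of the 55 tested patterning genes were lower with NP-G2-044 (50.9%) and 8 were higher (14.5%) at an adjusted p under 0.05, while 19 did not pass. Past both cutoffs, 7 were lower (12.7%), among them Prrx2, Dlx1, Prrx1, Hoxa3, Msx1 and Hoxb5, and 1 was higher (1.82%), Tbx2. The median log2 fold change was -0.21 over the 55 genes and 0.00 over all genes tested. The 3 libraries of one group lay wholly apart from those of the other, in CPM, reads scaled to the same library total, for 35 of the 55 genes (63.6%), against 80.8% of all genes tested. The patterning genes were expressed at a lower level than most, with a median of 8.67 TPM against 22.6 TPM over all genes tested, and the part of this in the counts was not tested. Their summed level was 1398 ± 14.2 TPM (SD, n = 3) in the IL-1β group and 1084 ± 8.5 TPM in the treated group.

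**Figure D1:**
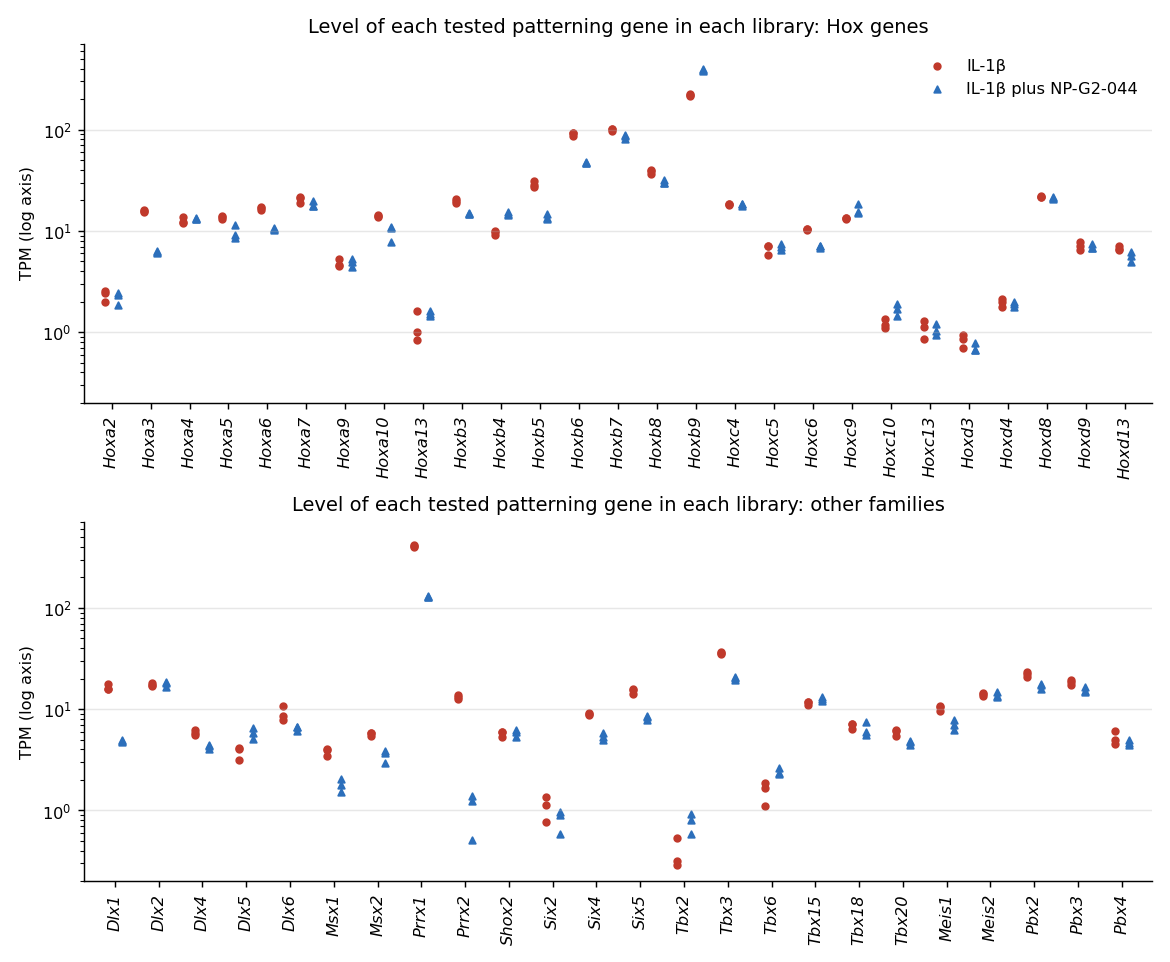
TPM of 51 of the tested genes (log axis) in the 3 IL-1β libraries (circles) and the 3 IL-1β + NP-G2-044 libraries (triangles), with Hox genes above and the other families below. Prrx1 and Hoxb9 stand highest in both groups and trade places, Prrx1 at 399 to 421 and then 127 to 132 TPM, Hoxb9 at 213 to 225 and then 383 to 399 TPM.

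Both paired-related homeobox genes fell, and Prrx2 had the largest fall of the 55 genes. Prrx1 (Entrez 18933, chr1:163245119-163315145, minus strand), a factor of limb bud and other skeletogenic mesenchyme, was at 399, 421 and 409 TPM with IL-1β alone and at 132, 128 and 127 TPM with the inhibitor added. No treated library came near the lowest IL-1β library. The log2 fold change was -1.65 ± 0.0274 (SE), a 3.14-fold lower level, with an adjusted p of 1.49e-46 in edgeR. Prrx2 (Entrez 20204, chr2:30845064-30881251, plus strand), its paralog, was at 13.8, 13.1 and 12.7 TPM without the inhibitor and at 1.4, 0.51 and 1.23 TPM with it. These levels rest on 127, 117 and 117 reads against 14, 5 and 12 reads, and the groups lay far apart. The log2 fold change of Prrx2 was -3.60 ± 0.203 (12.1-fold lower, edgeR adjusted p = 1.83e-22). The related Shox2, a factor of the limb segments nearest the trunk and of the heart's pacemaker, did not pass. Its level was 5.97, 5.29 and 5.97 TPM and then 5.26, 6.2 and 5.97 TPM, so the groups overlapped (log2 fold change -0.02, 95% interval -0.21 to 0.18).

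The Dlx genes lie in convergent pairs, and where both genes of a pair were tested they did not change alike. Dlx1 (chr2:71528113-71533981, plus strand) was at 17.6, 15.9 and 15.8 TPM with IL-1β alone and at 4.83, 4.94 and 4.77 TPM with NP-G2-044. Its neighbour Dlx2 (chr2:71543408-71546754, minus strand), 9426 bases away, was at 18.1, 17.5 and 16.8 TPM and then at 18.6, 16.4 and 18 TPM. All treated libraries were low for Dlx1, while for Dlx2 the groups overlapped. The log2 fold change was -1.71 ± 0.0811 for Dlx1 (3.26-fold lower, edgeR adjusted p = 1.2e-25) and 0.05 for Dlx2 (95% interval -0.08 to 0.18). The exons of Dlx1 share 335 bases with the opposite-strand gene Dlx1as, and no source used here says whether reads were counted by strand.

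In the second pair, on chromosome 6, Dlx5 and Dlx6 moved in opposite directions. Dlx5, an activator of the osteoblast and chondrocyte programmes, was at 4.12, 4.02 and 3.13 TPM and rose to 5.78, 6.5 and 5.06 TPM (log2 fold change 0.65 ± 0.162, edgeR adjusted p = 0.000299). Dlx6 was at 7.8, 8.52 and 10.7 TPM and fell to 6.72, 6.03 and 6.69 TPM (-0.45 ± 0.149, edgeR adjusted p = 0.00548). Both separated the groups in full. Dlx4 was lower as well (-0.43). Its partner Dlx3 had 11 reads in all and was not tested, so that pair could not be compared.

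The MSX repressors both fell. Msx1 (chr5:37820491-37824585, minus strand), which holds progenitors in an undifferentiated state, was at 3.98, 3.47 and 4.08 TPM and then at 1.77, 2.05 and 1.52 TPM (log2 fold change -1.08 ± 0.174, edgeR adjusted p = 2.14e-07). Msx2 was at 5.42, 5.79 and 5.87 TPM and then at 2.97, 3.88 and 3.69 TPM (-0.66 ± 0.126, edgeR adjusted p = 5.48e-06). In each case the highest treated library stayed below the lowest IL-1β library. Msx1 sat close to the fold cutoff, and without the third treated library its log2 fold change was -0.98.

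Of the cofactors of HOX proteins, Pbx2 (log2 fold change -0.34 ± 0.0558, edgeR adjusted p = 3.01e-07) and Pbx3 (-0.22 ± 0.0633, edgeR adjusted p = 0.00137) were lower, each with every treated library below every IL-1β library. Pbx4 did not pass, at 6.1, 4.98 and 4.54 TPM and then 4.99, 4.39 and 4.59 TPM (-0.07, 95% interval -0.39 to 0.25). Meis1 was lower (-0.64 ± 0.0801, edgeR adjusted p = 4.66e-10), whereas Meis2, at 14.6, 14.1 and 13.4 TPM and then 14.7, 13.3 and 13.6 TPM, overlapped between groups (0.02, 95% interval -0.10 to 0.14).

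**Figure D2:**
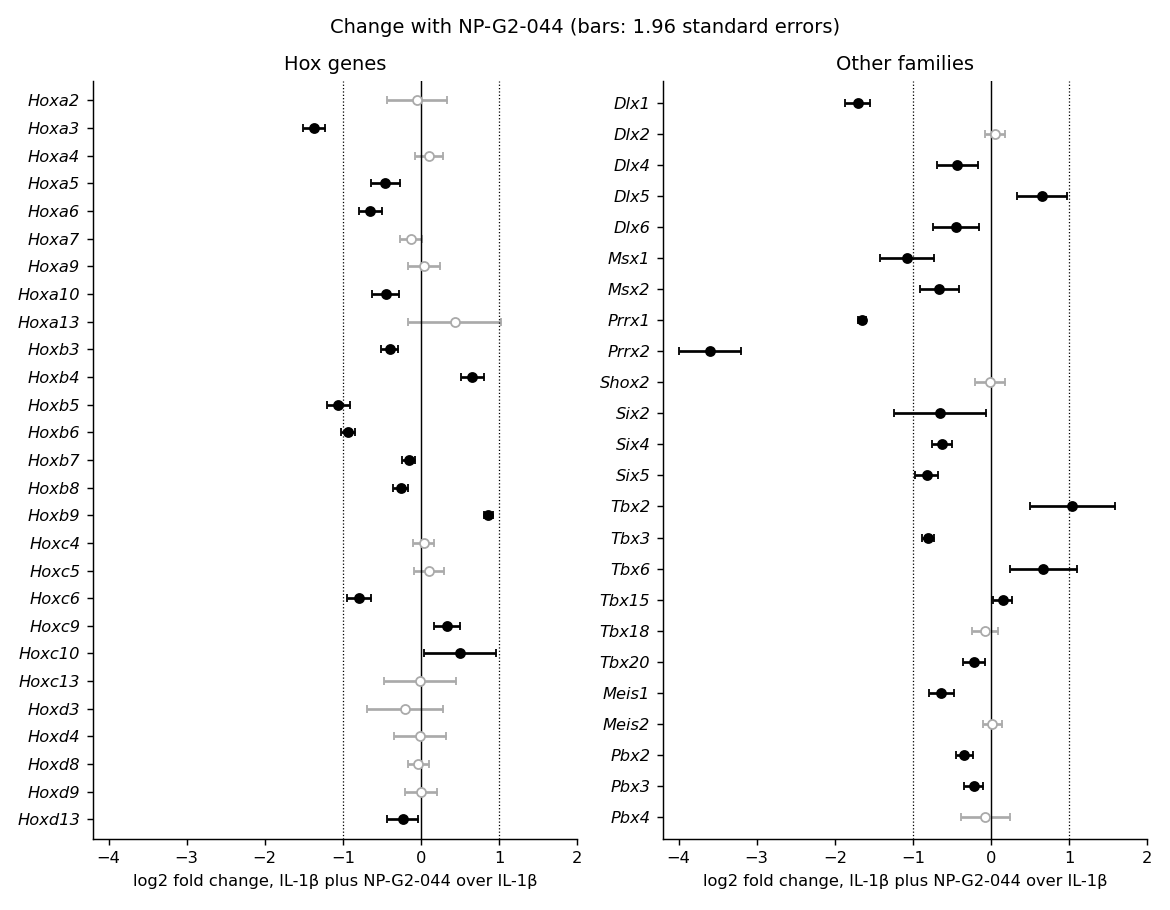
Log2 fold change of 51 of the tested genes, IL-1β + NP-G2-044 over IL-1β, with bars for the approximate 95% interval. Filled black points passed an adjusted p under 0.05 in edgeR, open grey points did not, and dotted lines mark a log2 fold change of 1 in either direction. Prrx2 lies farthest to the left at -3.60, and Tbx2 alone passes the right-hand line, at 1.04.

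Six-family genes, whose products act with EYA proteins in precursor cells, were lower. Six5 was at 14.1, 15.45 and 15.8 TPM and then at 8.64, 7.88 and 8.44 TPM (log2 fold change -0.83 ± 0.0727, edgeR adjusted p = 5.71e-15). Six4 (-0.63) likewise had every treated library below every IL-1β library. Six2 was near the threshold (-0.65, edgeR adjusted p = 0.0442), rested on 100 reads and overlapped between groups.

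T-box genes went both ways. Tbx3 (chr5:119670534-119684724, plus strand), a repressor needed for limb and mammary development and the T-box gene with the highest level, was at 35.5, 34.9 and 36.8 TPM and then at 20.8, 20.1 and 19.2 TPM (log2 fold change -0.81 ± 0.0396, edgeR adjusted p = 4.44e-25). Its close relative Tbx2 (chr11:85832615-85841948, plus strand) was at 0.54, 0.32 and 0.29 TPM and then at 0.81, 0.58 and 0.93 TPM. The groups lay apart in both genes, but in opposite directions, and Tbx2 rested on 19, 11 and 10 reads against 30, 22 and 35. The rise of Tbx2 was 1.04 ± 0.277 (2.06-fold, edgeR adjusted p = 0.000662), and it was 0.93 without the second IL-1β library, 0.87 without the third and 0.89 without the third treated library, each under the fold cutoff. Tbx6 (0.67) and Tbx15 (0.15) were higher, Tbx20 was lower (-0.21), and Tbx18, at 6.32, 7.19 and 7.07 TPM and then 7.5, 5.51 and 6.02 TPM, overlapped (-0.08, 95% interval -0.24 to 0.08).

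Among the 33 listed Hox genes, 28 were tested, of which 4 were higher, 11 lower and 13 did not pass, with a median log2 fold change of -0.04. Of the 36 listed genes of the other families, 27 were tested, of which 4 were higher, 17 lower and 6 did not pass, with a median of -0.45. The counts by cluster are given as a description, with no test between clusters. In HoxB all 7 tested genes passed, 2 higher and 5 lower, and all 7 separated the groups, where 40.2% of all genes tested were higher, 39.8% lower and 80.8% separated the groups. In HoxA 4 of 10 were lower and none higher, in HoxC 2 of 6 were higher and 1 lower, and in HoxD 1 of 5 was lower.

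HoxB was the most expressed cluster and changed in makeup. Hoxb9 (Entrez 15417, chr11:96271330-96276595, plus strand) was at 218, 225 and 213 TPM with IL-1β alone and at 399, 386 and 383 TPM with NP-G2-044. Hoxb6 was at 92.35, 87.1 and 93.2 TPM and then at 46.7, 46.5 and 47.4 TPM, and Hoxb5 (chr11:96303512-96306121, plus strand) was at 31.4, 28.3 and 27.04 TPM and then at 13.3, 12.96 and 14.6 TPM. Hoxb9 was thus high, and Hoxb5 and Hoxb6 low, in all treated libraries. The log2 fold change was 0.87 ± 0.0281 for Hoxb9 (1.82-fold higher, edgeR adjusted p = 4.52e-33). For Hoxb6 it was -0.93 ± 0.0451 (edgeR adjusted p = 2.7e-25), and for Hoxb5 -1.06 ± 0.0729 (2.08-fold lower, edgeR adjusted p = 6.32e-19). Without the first IL-1β library the value of Hoxb5 was -0.99, under the fold cutoff.

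The rest of the cluster changed less. Hoxb7 (-0.15), Hoxb8 (-0.26) and Hoxb3 (-0.40) were lower. Hoxb4 (chr11:96318267-96321638, plus strand), whose promoter is printed above, was at 10.0, 9.7 and 9.05 TPM and then at 15.4, 14.7 and 14.4 TPM (0.66 ± 0.0745, edgeR adjusted p = 2.19e-11). Hoxb4 and Hoxb9 were therefore the HoxB genes that rose, and Hoxb4 lies inside the annotated span of Hoxb3, which fell. The exons of Hoxb3 overlap the opposite-strand Hoxb3os over 2250 bases, 52.9% of their length, so reads of Hoxb3 and Hoxb3os may not be told apart. Hoxb1 had no read in any library and Hoxb2 had 7 reads in the IL-1β group and 1 with the inhibitor.

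The share of Hoxb9 in the summed TPM of the cluster was 43.2% ± 0.979 (SD, n = 3) in the IL-1β group and 65.4% ± 0.991 in the treated group. That of Hoxb6 was 17.98% ± 0.771 and then 7.87% ± 0.106. The summed level of the cluster itself was 506 ± 7.53 TPM without and 595 ± 4.47 TPM with NP-G2-044. Hoxb9 alone gained more TPM than the sum did, and the sum of the other genes was lower.

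**Figure D3:**
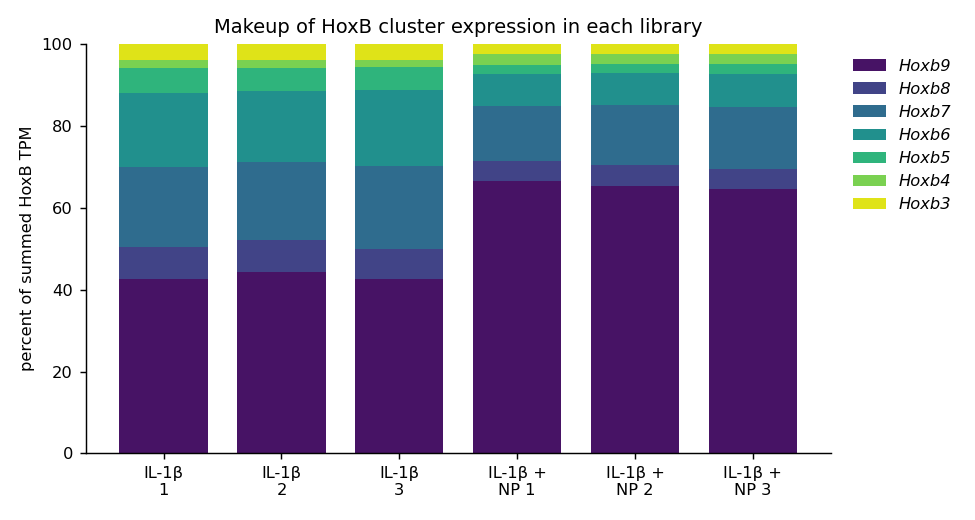
Share of each HoxB gene in the summed HoxB TPM of each library, as stacked bars that add up to 100 percent, with NP standing for NP-G2-044. The Hoxb9 share at the base of each bar is 42.6 to 44.4% in the IL-1β libraries and 64.5 to 66.5% in the treated libraries.

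In HoxA 4 genes were lower, and Hoxa3 had the largest fold change. Hoxa3 (Entrez 15400, chr6:52169059-52213067, minus strand), a factor of neck and pharyngeal structures, was at 16.1, 15.4 and 15.8 TPM and then at 6.05, 6.19 and 6.39 TPM. Every treated library was under every IL-1β library (log2 fold change -1.37 ± 0.0717, 2.58-fold lower, edgeR adjusted p = 8.13e-24). Its exons overlap opposite-strand genes over 25.4% of their length, Hoxaas2 and Hoxaas3 among them, and share 482 bases with the same-strand Gm28308, so its count is uncertain to that extent. Hoxa5 (-0.45), Hoxa6 (-0.65) and Hoxa10 (-0.45) were also lower. Hoxa7, the HoxA gene with the highest level, was at 20.95, 18.8 and 21.7 TPM and then at 17.6, 17.5 and 19.9 TPM, overlapped between groups and did not pass (-0.13, 95% interval -0.27 to 0.01). 

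Other HoxA genes overlapped between groups and did not pass. Hoxa2 was at 1.98, 2.55 and 2.44 TPM and then at 2.32, 1.86 and 2.44 TPM (-0.05, 95% interval -0.43 to 0.34). It is a gene of the hindbrain and its neural crest. For Hoxa4 the levels were 12.2, 13.8 and 11.9 TPM and then 13.2, 13.2 and 13.5 TPM (0.10, 95% interval -0.08 to 0.29). Hoxa9 was at 5.22, 4.63 and 4.47 TPM and then at 4.35, 5.26 and 4.88 TPM (0.04, 95% interval -0.16 to 0.24). The interval was widest for Hoxa13, a factor of the digits and hindgut that was at 1.62, 0.83 and 1 TPM and then at 1.46, 1.6 and 1.52 TPM (0.43, 95% interval -0.17 to 1.03).

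In HoxC, Hoxc9 (0.34) and Hoxc10 (0.50) were higher and Hoxc6 was lower (-0.80 ± 0.0785, edgeR adjusted p = 2.52e-13). Hoxc10 was near the threshold (edgeR adjusted p = 0.0451) and rested on 157 reads. Hoxc4, the gene of this cluster with the highest level, was at 18.4, 18.2 and 18.5 TPM and then at 18.3, 18.4 and 17.5 TPM, so the groups overlapped (0.04, 95% interval -0.10 to 0.17). Hoxc5, at 7.05, 7.07 and 5.81 TPM and then 6.53, 6.99 and 7.4 TPM (0.10, 95% interval -0.08 to 0.29), did not pass either. Nor did Hoxc13, a gene of hair and nail, at 0.86, 1.29 and 1.13 TPM and then 1.03, 1.21 and 0.93 TPM (-0.02, 95% interval -0.48 to 0.45).

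In HoxD, 4 of the 5 tested genes did not pass. Hoxd8, the highest of them, was at 22.2, 21.8 and 21.8 TPM and then at 20.8, 21.8 and 21.1 TPM (-0.03, 95% interval -0.16 to 0.10). Hoxd9 was at 7.74, 7.03 and 6.43 TPM and then at 6.73, 7.35 and 6.72 TPM (0.00, 95% interval -0.20 to 0.21). These levels overlapped between groups. Hoxd4 was at 2.12, 1.97 and 1.77 TPM and then at 1.99, 1.79 and 1.9 TPM (-0.01, 95% interval -0.35 to 0.32), and Hoxd3 at 0.85, 0.69 and 0.93 TPM and then 0.78, 0.66 and 0.66 TPM (-0.20, 95% interval -0.69 to 0.29). Both overlapped as well, and both share exons with the same-strand gene Gm28230. Hoxd13, a factor of the digits, was lower by a small amount (-0.24, edgeR adjusted p = 0.0285).

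**Figure D4:**
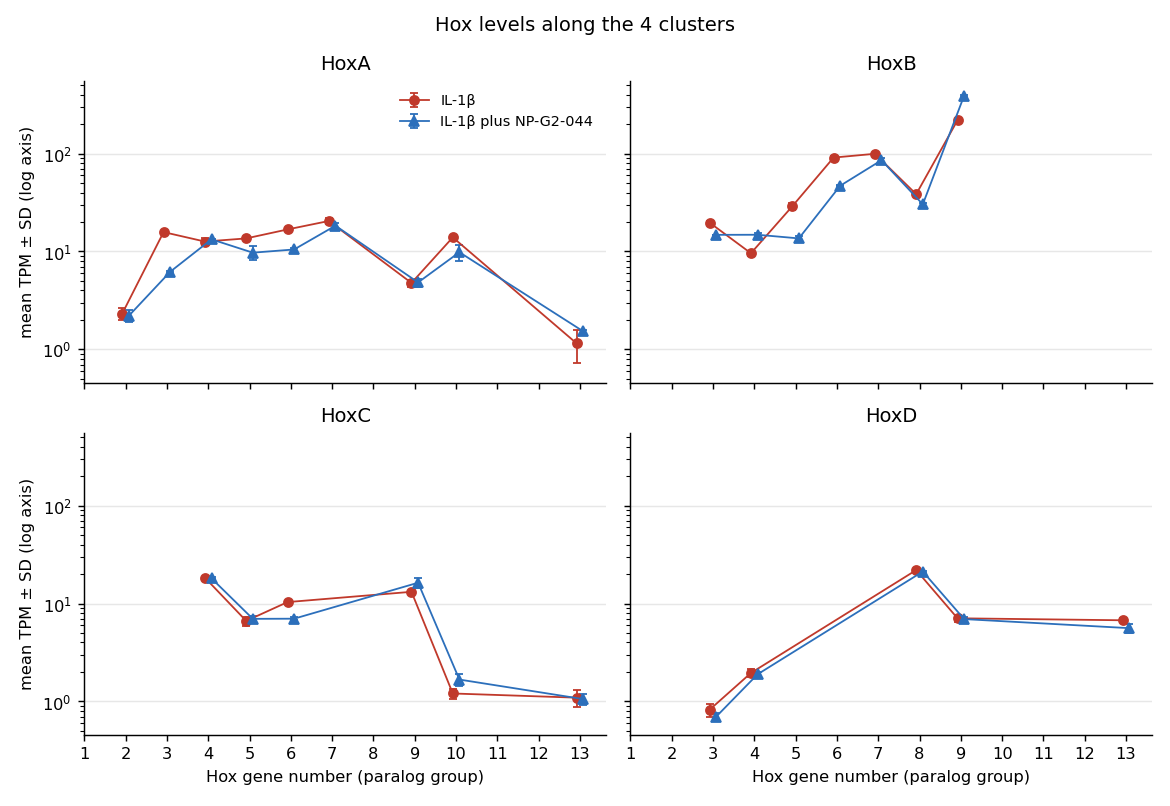
Mean TPM ± SD (n = 3, log axis) of tested genes of each Hox cluster against their number, for IL-1β (circles) and IL-1β + NP-G2-044 (triangles), with lines that join genes of one group. The gap between the lines is widest at Hoxa3 and across Hoxb5, Hoxb6 and Hoxb9, and the lines of HoxD nearly coincide.

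Taken by number, none of the 10 tested Hox genes numbered 5 to 8 was higher and 7 were lower, with a median log2 fold change of -0.36. Those numbered 1 to 4 had 1 higher and 2 lower of 9 (median -0.01), and those numbered 9 to 13 had 3 higher and 2 lower of 9 (median 0.04). Over all genes tested, 40.2% were higher and 39.8% lower. The summed level went from 347 to 249.96 TPM for numbers 5 to 8, where Hoxb6 alone went from 90.9 to 46.9 TPM. For numbers 9 to 13 it went from 268 to 437 TPM, mostly Hoxb9. Both sums thus rest largely on the HoxB cluster. These groups of numbers were formed for description, and no test was made between them.

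Members that follow each other along a chromosome were compared within each library, as the log2 ratio of their TPM, for the 23 pairs of tested members at most 50 kb apart. In 3 of these pairs the annotated genes overlap, since Hoxb4, Hoxa4 and Hoxd4 lie inside the spans of Hoxb3, Hoxa3 and Hoxd3. In 3 pairs the genes passed in opposite directions, namely Hoxb9 and Hoxb8, Hoxb3 and Hoxb4, and Dlx6 and Dlx5. In 6 pairs they passed in the same direction, and in 14 pairs at least 1 gene did not pass. The ratio did not overlap between groups in 12 pairs. No such share was computed for other pairs of genes, and 80.8% of all genes tested separated the groups singly. The 12 pairs are therefore not shown to be particular to these neighbours. With 3 libraries against 3, an exact two-sided permutation test cannot go below p = 0.1, which these 12 pairs reached, and after Benjamini-Hochberg adjustment over the 23 pairs the smallest exact p was 0.192. The change was widest for Dlx1 over Dlx2, whose log2 ratio was -0.04, -0.14 and -0.09 with IL-1β alone and -1.94, -1.73 and -1.92 with NP-G2-044. The ratio of Hoxa3 to Hoxa4 went from 0.32 ± 0.144 to -1.10 ± 0.0269, and that of Hoxb9 to Hoxb8 from 2.51 ± 0.0569 to 3.68 ± 0.0769 (mean ± SD, n = 3).

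**Figure D5:**
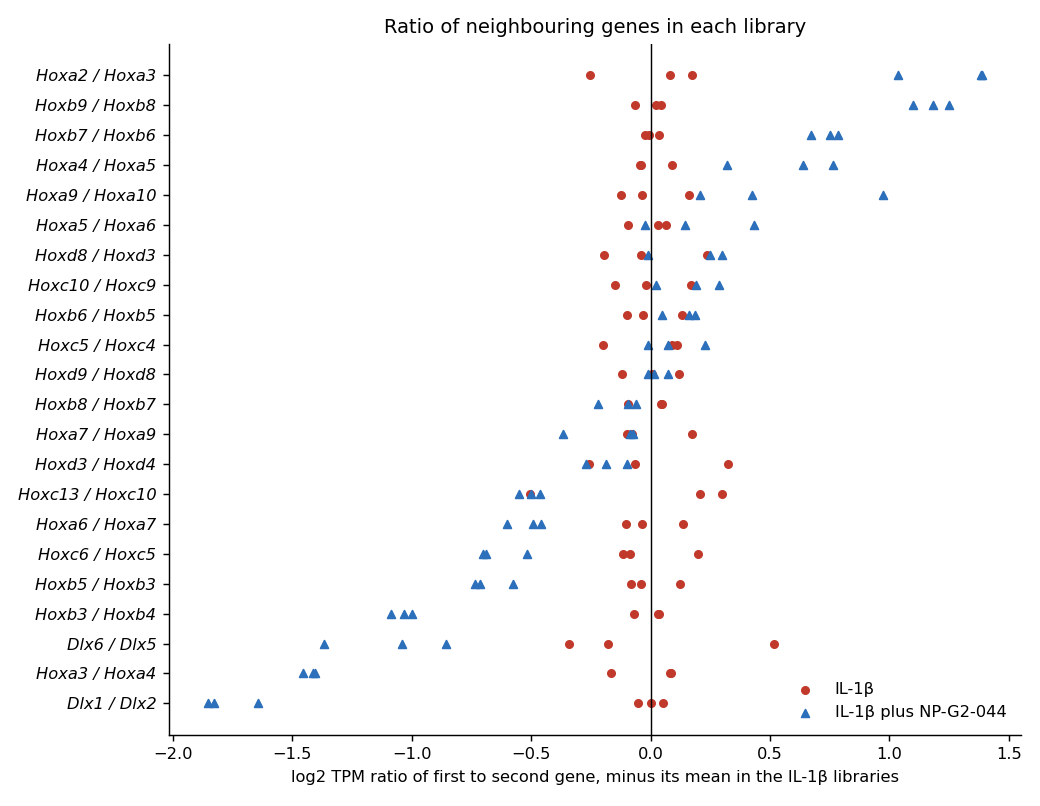
Log2 TPM ratio of the first to the second gene of neighbouring pairs in each library, less the mean of that ratio over the IL-1β libraries, so that the circles (IL-1β) lie about 0 and the triangles (IL-1β + NP-G2-044) show the shift. Dlx1 over Dlx2 shifts by -1.78 and Hoxa2 over Hoxa3 by 1.27, the outermost pairs.

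The remaining 14 listed genes had fewer than 60 reads over all libraries and were not tested. Hoxa11 and Hoxb1 had none, which allows a level of up to 0.0291 CPM over the 6 libraries, for counting error only. Hoxd10 had 18 reads in the IL-1β group and 13 with the inhibitor, a ratio of 0.686 after scaling by library totals (exact 95% interval 0.309 to 1.48), and Hoxb2 had a ratio of 0.136 (0.00301 to 1.06). For both genes the interval includes 1. Dlx3, Hoxc8, Meis3, Pitx1, Pitx3, Six6, Tbx4, Tbx10, Tbx19 and Tbx21 had 1 to 11 reads each.

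Genes that work with these factors moved in both directions. Of the EYA and DACH partners of SIX-family proteins, 3 of 4 tested were higher and 1 lower, beside 40.2% higher and 39.8% lower over all genes tested. Eya1 was at 5.96 ± 0.337 TPM and then 2.72 ± 0.228 TPM (log2 fold change -1.10), and Dach2 at 1.41 ± 0.175 and then 3.95 ± 0.367 TPM (1.74), with Eya4 (0.25) and Eya3 (0.15) higher by less. Of the other TALE and IRX homeodomain genes, 2 of 8 were higher and 3 lower, shares below the same 40.2% and 39.8%. Tgif1, a repressor of TGF-β and retinoid signals, was higher (0.99), as was Irx2 (0.76), and the tendon factor Mkx (-1.11) and Tgif2 (-0.69) were lower.

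Of 51 other limb and skeletal patterning factors, 36 were listed and 26 tested, of which 6 were higher, 10 lower and 10 did not pass, again beside 40.2% higher and 39.8% lower over all genes. Twist2, a mesenchymal repressor, was at 21.7 ± 1.23 TPM without and 3.76 ± 0.693 TPM with NP-G2-044 (log2 fold change -2.50 ± 0.12, edgeR adjusted p = 1.87e-25). Foxc1, a factor of skeletal precursors, was lower too (-1.69). Lmx1b, which sets the dorsal side of the limb (1.26), and Emx2 (0.99), which acts in shoulder blade formation, were higher, at mean levels of 0.763 and 3.29 TPM without the inhibitor.

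Retinoic acid regulates Hox genes in the embryo. Of 21 genes of its pathway, 12 were tested, of which 6 were higher and 6 lower, where 40.2% and 39.8% of all genes tested were. Dhrs3, which turns retinaldehyde back to retinol, was at 3.78 ± 0.241 TPM and then at 0.477 ± 0.0451 TPM (log2 fold change -3.03). The carrier Rbp4 was also lower (-1.55), while the binding protein Crabp2 (1.80) and the retinaldehyde dehydrogenase Aldh1a3 (1.08) were higher. Aldh1a3 rested on a low level, 0.353 ± 0.223 TPM and then 0.73 ± 0.322 TPM, and overlapped between groups.

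The chromatin regulators that keep Hox genes silent or active were all tested and had median changes near 0. Of 32 Polycomb genes, 12 were higher, 15 lower and 5 did not pass, with a median log2 fold change of -0.06. Phf19, a Polycomb-like accessory subunit, went from 21.2 ± 0.0808 to 5.75 ± 0.747 TPM (-1.96 ± 0.0707, edgeR adjusted p = 5.44e-31), and Epop fell by 1.12 on the log2 scale. Pcgf5 (0.71) and Pcgf1 (0.62) were higher. Of 14 Trithorax and MLL genes with the H3K27 demethylases, 5 were higher and 8 lower (median -0.11), from Psip1 (-0.56) and Kmt2a (-0.47) to Rbbp5 (0.34) and the demethylase Kdm6b (0.55). Over all genes tested the shares were 40.2% higher and 39.8% lower. None of 18 named antisense and other non-coding genes of these loci was listed in the table.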

How the data were processed

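The 6 RNA sequencing libraries, of cells labelled ATDC5, were used, 3 per group by the sample titles. The authors deposited estimated read counts, TPM and FPKM per gene, and their processing notes name cutadapt, HISAT2 2.0, StringTie and the mm10 build, while the sources used here do not give the gene annotation or the use of strand. Between 10.2 and 11.1% of the deposited estimated counts per library were not whole and were rounded. Deposited TPM values are printed as levels, and the deposited FPKM, group means and comparison columns (fold changes and p-values) were not used. Counts were fitted over all 11983 genes passing filterByExpr (minimum count 10) with edgeR 4.0.16 (TMM, robust quasi-likelihood test, R 4.3.3), and p-values were adjusted by Benjamini-Hochberg over all of them. The cutoffs were an adjusted p under 0.05 and, for "past both cutoffs", a log2 fold change above 1 in size. Intervals of fold changes are normal 95% intervals from the standard error.

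Members and gene lists were chosen with earlier results of these data known. Named with values in every library were the genes past both cutoffs, the gene with the highest mean TPM in each family and every tested gene that did not pass, and of each other list the 2 largest rises and falls are named. Some genes under this rule are counted but not reported here. In simulated counts with known changes, the edgeR fit recovered 198 of 198 changed genes among 11916 and called 13 unchanged ones. All planted log2 fold changes exceeded 1 in size, lay in a small share of genes and used the same spread for every gene. Smaller changes, like most of those that passed above, were not tried. Gene positions came from RefSeq on GRCm38.p6 and exon overlaps from GENCODE vM21. Of the 55 tested genes, 20 shared exon bases with another gene, and for 9 the shared bases exceeded 10% of exon length. Besides those described above, Meis1, Hoxa2, Hoxa4, Hoxa7 and Tbx18 were among the 9, so their counts carry the same uncertainty. Marker lists of 10 cell types were summed. Smooth muscle, skeletal muscle, endothelial and epithelial markers summed to at most 1.35 TPM in any library. The osteoblast list summed to 23.4 to 25.9 TPM without and 12.4 to 13.6 TPM with the inhibitor, the adipocyte list to 4.87 to 7.53 and 0.48 to 0.91 TPM, the neural list to 30.9 to 33.2 and 24.0 to 25.5 TPM, and the macrophage or blood list to 11.3 to 14.4 and 124 to 135 TPM, the last almost wholly Cd68 with Ptprc at 0 reads. Only 2 neural markers were listed, Sox2, which fell from 27.4 to 6.05 TPM, and Tubb3, which rose from 4.98 to 18.6 TPM. Alternatives were other normalizations, DESeq2 1.42.0, limma 3.58.1 on log2 TPM, other filters, a replicate block, glmTreat and leaving out each library.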

Additional observations from a re-analysis of the deposited data

How the results depend on the processing

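Under the alternatives run, no count turned its direction and no named gene that had passed the test changed sign. The count of patterning genes higher past both cutoffs, 1 (Tbx2), was 0 with limma on log2(TPM + 1) or log2(TPM + 0.1), with a filter that asks for 10 CPM in 3 or more libraries and leaves 33 of the genes without Tbx2, and with glmTreat against a fold change of 2, and it ranged from 0 to 1 when each library was left out in turn. Under the filter of 10 CPM the count higher at an adjusted p under 0.05 was 3, and the median log2 fold change was -0.37, since fewer genes were tested. The count lower past both cutoffs, 7, was 5 under this filter, 5 with glmTreat and 6 with limma on log2(TPM + 1). When each library was left out, it was 6 to 7. The counts at an adjusted p under 0.05 were then 6 to 7 higher and 26 to 30 lower, and the median was -0.25 to -0.16. With limma on log2(TPM + 1), Msx1 was under the fold cutoff (-0.80). DESeq2 gave 6 higher and 26 lower, with 1 and 7 past both cutoffs. No sign of pairing by replicate number was seen, as deviations of same-numbered libraries correlated at -0.0934, -0.0236 and 0.0259. Differently numbered libraries ranged from -0.107 to 0.129. With 3 libraries per group such correlations cannot exclude pairing. A fit with the replicate number as a block gave 7 higher and 27 lower, and again 1 and 7 past both cutoffs. Hoxa7 passed an adjusted p under 0.05 with limma (0.0476 with a pseudocount of 1) and without some libraries, and Tbx18 passed without the first treated library (0.0218). Raising the minimum of 60 summed reads to 120 left 53 genes, and lowering it to 30 left 56. Genes with few reads, such as Tbx2, Six2 and Hoxc10, are limited by depth, and with 3 libraries per group p-values measure the spread between these libraries only.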
